A study of Mus musculus with 20 samples.

Results

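The genes described here are 6 matrix metalloproteases (Mmp8, Mmp9, Mmp12, Mmp13, Mmp14 and Mmp19), 2 tissue inhibitors of metalloproteases (Timp1 and Timp2) and 2 proteases of the ADAMTS family (Adamts1 and Adamts16). They were chosen by symbol, make up 10 of the 24421 genes counted, and were read in all 20 libraries of a study of mouse macrophages. Total RNA of C57BL/6JRj mice had been sequenced from 5 populations, with 4 libraries each. The populations are peritoneal macrophages, macrophages of the choroid plexus, MHC II-high and MHC II-low macrophages of the dura, and microglia of the brain. The MHC II-low dura libraries have "int" in their titles and "lo" as their cell type. The dura is the tough outer layer of the meninges, and the choroid plexus lines parts of the ventricles and makes cerebrospinal fluid. No allele, transgene or treatment is given for any library, and the labels say nothing of age, of the cells' isolation, of batches, or of whether libraries of a population come from separate animals. The p-values thus rest on how far these libraries differ within a population, and that difference may be technical.

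Matrix metalloproteases are zinc-dependent enzymes that cut collagens, elastin, proteoglycans and many other proteins outside the cell. Most are secreted or held at the membrane as inactive proenzymes, which other proteases then cleave, and the TIMP proteins block the active enzymes by binding to their catalytic site. ADAMTS proteases are related secreted enzymes with thrombospondin repeats, several of which cut the proteoglycans that fill the brain's extracellular matrix. Macrophages of the dura and choroid plexus stroma lie in connective tissue rich in collagen, while microglia lie in brain tissue that has little fibrillar collagen.

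Gene counts per library came to 13383274–32611875, and 3 counts corresponded to 0.0964–0.222 CPM in a single library. The labels were checked on the summed levels of marker lists. Microglia markers summed to 31112–41662 CPM in microglia and to at most 9851 CPM elsewhere. Large peritoneal macrophage markers summed to 19994–25202 CPM in peritoneal macrophages and to at most 2235 CPM elsewhere. MHC class II genes set the dura populations apart, at 52627–59083 CPM in MHC II-high and 2099–2326 CPM in MHC II-low dura. Choroid plexus, at 43722–61579 CPM, overlapped the former and peritoneal macrophages, at 484–4673 CPM, the latter, with microglia at 113–188 CPM. No list was particular to choroid plexus macrophages. Genes of other cells were present too. Choroid plexus epithelium markers, 10 genes, summed to 3999–7547 CPM in choroid plexus libraries and 66.6–20462 CPM in microglia, with the highest value in microglia replicate 3, against at most 31.2 CPM in peritoneal and dura libraries. Fibroblast markers, 8 genes, summed to 0–1.75 CPM in peritoneal, 328–1129 CPM in choroid plexus (highest in replicate 4), 175–345 CPM in the MHC II-high dura, 149–223 CPM in MHC II-low dura and 8.13–138 CPM in microglia libraries (highest in replicate 3). Leaving out microglia replicate 3 and choroid plexus replicate 4 together, a choice made after seeing the data, left the number of the 10 genes called in each comparison as it was, except that choroid plexus against MHC II-low dura then had 3 in place of 2.

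Of the 10 genes, 9 passed the filter on low counts and were tested, and Mmp8 was not. Levels are in CPM, counts per 1000000 counts in genes after TMM scaling, and means are ± SD with n = 4 libraries in each population. Log2 fold changes are given ± SE. A gene is said to have risen, fallen or been called where edgeR's quasi-likelihood test gave a Benjamini-Hochberg adjusted p under 0.05 over all 13960 tested genes and a change of at least 2-fold. These are bulk samples, so fewer cells of a type and less RNA per cell cannot be told apart.

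**Figure D1:**
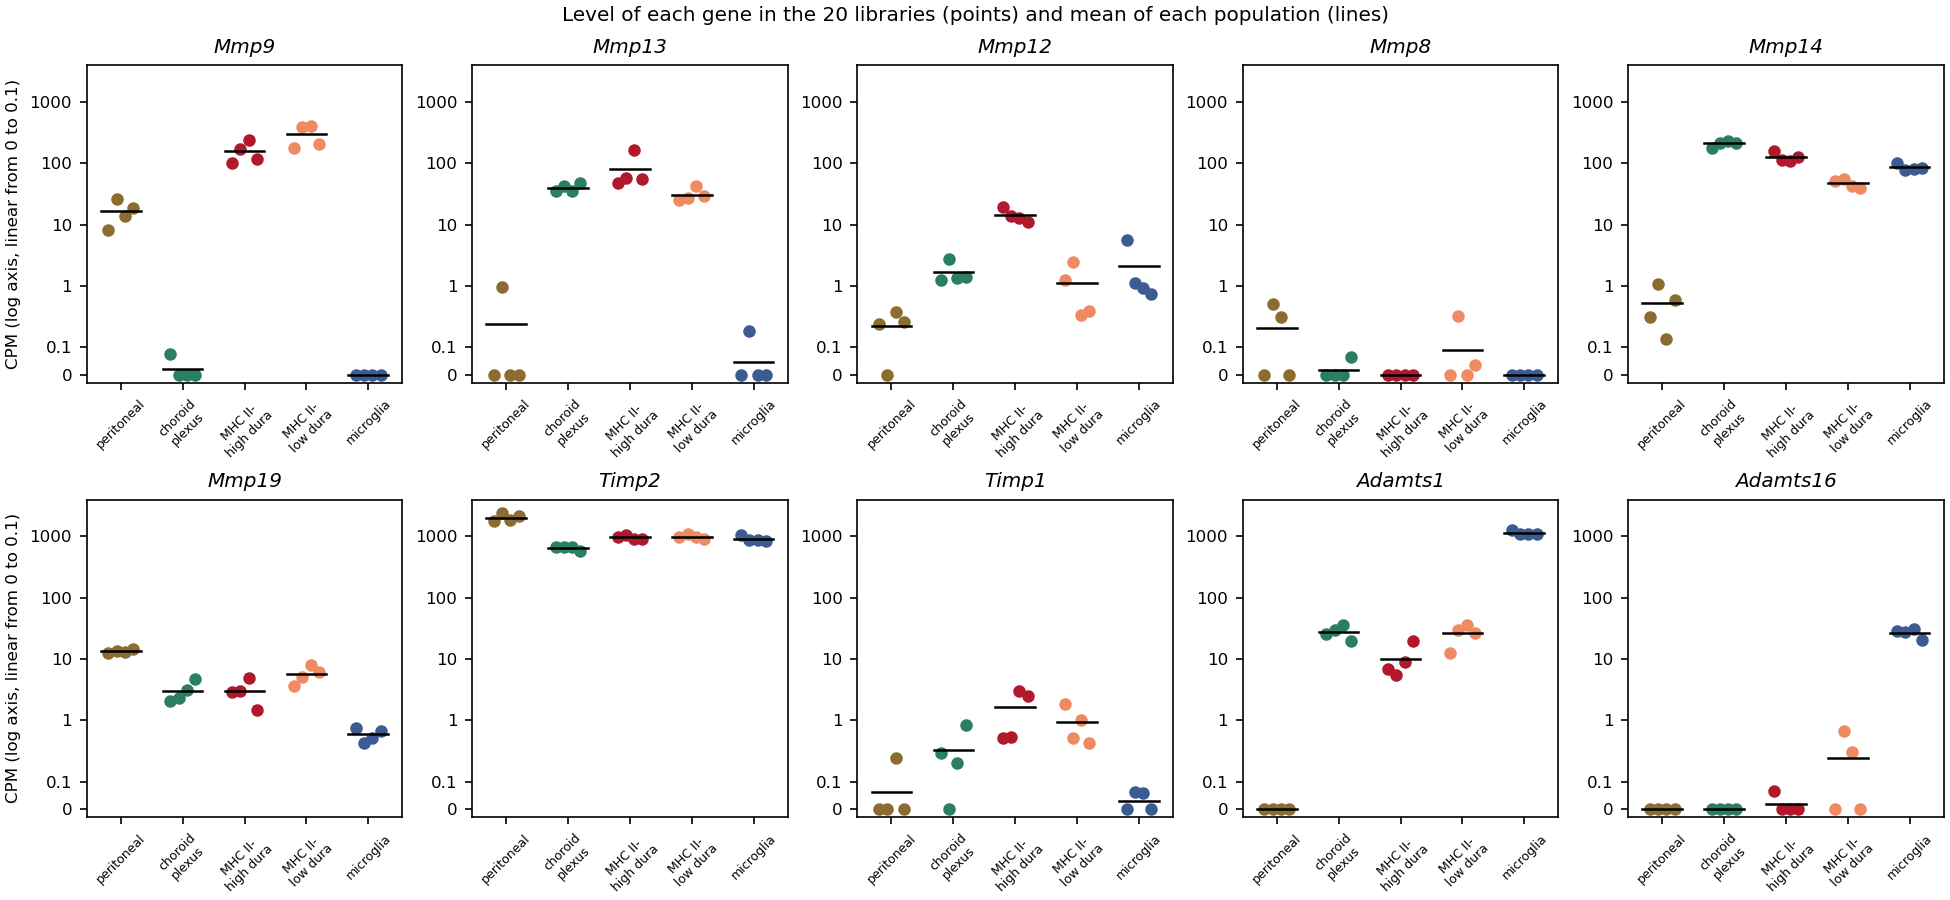
Level of each of the 10 genes in the 20 libraries, in CPM on an axis that is linear from 0 to 0.1 and logarithmic above, with points for libraries, ordered by replicate number from left to right, and lines for the mean of each population. Mmp9 lies between 103 and 410.2 CPM in the dura libraries and at 0 in all microglia libraries, while Adamts1 is at 0 in all peritoneal libraries and between 1086 and 1249 CPM in microglia.

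Mmp9, the larger of the gelatinases, which cut denatured collagen and basement membrane collagen, was highest in the dura macrophages. Its level was 8.19, 26.0, 14.0 and 18.5 CPM in the 4 peritoneal libraries, 103, 170.0, 239.7 and 116 CPM in the MHC II-high dura and 176, 393, 410.2 and 209 CPM in MHC II-low dura. The choroid plexus libraries held 1 count in all, in replicate 1, and the microglia libraries none. The dura libraries thus stood apart from all others, and the peritoneal ones lay in between without overlap. The level in MHC II-high dura was 9017 times that in choroid plexus (95% counting interval 1618–356164) and in MHC II-low dura 17741 times (3184–700762). Without choroid plexus replicate 1 these become at least 2397-fold and at least 4522-fold. Against microglia, Mmp9 was at least 3388-fold higher in MHC II-high dura, at least 6393-fold higher in MHC II-low dura and at least 359-fold higher in peritoneal macrophages, the bounds being set against 3 counts over the whole microglia group. Peritoneal macrophages had less than either dura population, with log2 fold changes of -3.24 ± 0.40 against MHC II-high (edgeR adjusted p = 7.76e-06) and -4.16 ± 0.41 against MHC II-low dura (edgeR adjusted p = 7.29e-07), and 974 times the choroid plexus level (interval 175–38504, and at least 254-fold without choroid plexus replicate 1). Between the dura populations Mmp9 averaged 157 ± 62 CPM in MHC II-high and 297 ± 122 CPM in MHC II-low cells. Their libraries overlapped and the change was not called (log2 fold change -0.92 ± 0.36, edgeR adjusted p = 0.133, approximate 95% interval -1.69 to -0.14). A fit of the dura libraries alone that took replicate number into account was added after seeing the data. There the change was -0.91 ± 0.08 (edgeR adjusted p = 3.62e-06), still short of 2-fold.

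Neutrophils are a well-known source of Mmp9 and Mmp8, so neutrophil genes were read beside them. The 11 neutrophil markers in the files summed to 156–293 CPM in peritoneal, 109–132 CPM in choroid plexus, 101–144 CPM in the MHC II-high dura, 116–126 CPM in MHC II-low dura and 511–652 CPM in microglia libraries. Most of it was Csf3r, the receptor for granulocyte colony-stimulating factor, at 117 ± 19.7 CPM in MHC II-high and 119 ± 3.83 CPM in MHC II-low dura. Camp, Retnlg, Mpo and Elane had no counts in MHC II-high dura, Ngp, Mpo, Elane and Lcn2 had none in MHC II-low dura, and S100a8 and S100a9 reached at most 0.634 CPM in any dura library. The other 7 of the 11 markers had counts in each dura population. The part of neutrophils in the Mmp9 and Mmp8 levels was not tested.

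The collagenases and the macrophage elastase lie together on mouse chromosome 9, and only part of that cluster had reads. Mmp13 (mm10 chr9:7272514-7283331, plus strand), Mmp12 (chr9:7344381-7369499, plus strand) and Mmp8 (chr9:7558456-7568485, plus strand) are 3 of 10 Mmp genes there, which span 427.1 kb up to Mmp7 at base 7699585. Of their neighbours, Mmp1a, Mmp1b, Mmp7 and Mmp20 had no counts in any library, and Mmp10 had 3 counts in all. Mmp3, which encodes stromelysin-1, had 63 counts in 1 MHC II-low dura library (2.38 CPM), 3 in MHC II-high dura and 1 in choroid plexus. Mmp27 had 1.05 ± 0.570 CPM in peritoneal macrophages, 0.0977 ± 0.148 CPM in the MHC II-high dura and 0.344 ± 0.307 CPM in MHC II-low dura, with no counts in choroid plexus or microglia.

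The stretches before the starts of Mmp13 and Mmp12 are printed because these are the members of this cluster that passed the filter on low counts, and their letters differ in the motifs they hold. They are the 250 bases before a RefSeq transcript start on GRCm38.p6, 5′ to 3′ on the plus strand, at chr9:7272264-7272513 for Mmp13 and chr9:7347124-7347373 for the second of the Mmp12 starts. Capitals mark matches to TGANTCA, the letters bound by AP-1, and to TATAAA, both searched on both strands.
Mmp13: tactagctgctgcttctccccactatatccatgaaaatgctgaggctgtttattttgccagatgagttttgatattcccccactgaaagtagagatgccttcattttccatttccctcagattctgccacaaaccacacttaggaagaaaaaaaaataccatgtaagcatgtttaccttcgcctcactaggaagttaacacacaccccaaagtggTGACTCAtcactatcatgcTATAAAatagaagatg
Mmp12: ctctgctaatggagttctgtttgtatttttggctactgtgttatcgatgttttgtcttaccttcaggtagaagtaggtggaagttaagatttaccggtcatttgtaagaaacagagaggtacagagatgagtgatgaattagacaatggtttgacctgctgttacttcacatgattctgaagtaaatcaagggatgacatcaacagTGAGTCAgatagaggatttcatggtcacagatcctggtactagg
Mmp13 holds TGACTCA with its first base 35 bases before the start and TATAAA 16 bases before it, and Mmp12 holds TGAGTCA 44 bases before this start. The printed Mmp12 window lies inside the annotated gene. The window before the other Mmp12 start, at chr9:7344147-7344396, takes in the 5′ end of the gene and holds no TGANTCA or TATAAA. The window of Mmp8 holds neither. TGANTCA is found in 6.75% and TATAAA in 12.4% of the 32851 windows of this kind over all genes. These matches are letters only, and no file here measures binding.

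Mmp13, also called collagenase-3 and the main interstitial collagenase of rodents, was shared by the macrophages of the brain's borders. It reached 34.9, 43.1, 35.6 and 47.6 CPM in choroid plexus, 47.6, 58.4, 163 and 55.1 CPM in the MHC II-high dura and 24.9, 27.1, 43.0 and 29.4 CPM in MHC II-low dura. Peritoneal macrophages had 26 counts, all in replicate 2 (0.947 CPM), and microglia 3 counts, all in replicate 3 (0.185 CPM), so each of these populations had 3 libraries at 0. The choroid plexus epithelium markers were highest in microglia replicate 3 too, at 20462 CPM, and their part in these levels was not tested. The Mmp13 level was 873 times that of microglia in choroid plexus (95% counting interval 298–4235), 1678 times in MHC II-high dura (574–8140) and 665 times in MHC II-low dura (227–3228). Without microglia replicate 3 these are at least 650-, 1306- and 501-fold. Mmp13 fell in peritoneal macrophages by 7.37 ± 0.75 on the log2 scale against choroid plexus (edgeR adjusted p = 1.96e-07), by 8.37 ± 0.76 against MHC II-high dura (edgeR adjusted p = 5.94e-08) and by 6.99 ± 0.74 against MHC II-low dura (edgeR adjusted p = 3.71e-07), and without peritoneal replicate 2 it was at least 1092-, 2194- and 843-fold lower.

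Within the borders, the order of Mmp13 was MHC II-high dura, choroid plexus, MHC II-low dura, and no neighbours in it were called. MHC II-high libraries all lay above MHC II-low ones, at 81.0 ± 54.7 CPM against 31.1 ± 8.14 CPM, but the change of 1.38 ± 0.50 was not called (edgeR adjusted p = 0.088, approximate 95% interval 0.33 to 2.44). It was 0.79 without MHC II-high replicate 3, the library at 163 CPM. Among the fits that left out 1 library, it was called only without peritoneal replicate 2 (edgeR adjusted p = 0.0203), the library that held every peritoneal Mmp13 count. It was also called, at 1.21 ± 0.15 (edgeR adjusted p = 9.87e-05), in a fit of the dura libraries alone that took replicate number into account. That fit was added after seeing the data. Leaving out MHC II-high replicate 3 also moved the change of peritoneal macrophages against MHC II-high dura to -7.74 and the fitted change of MHC II-high dura against microglia to 9.95, against 10.60 with all libraries. Choroid plexus against MHC II-high dura gave -1.01 ± 0.49 (edgeR adjusted p = 0.145), with no overlap between the libraries although the nearest values round alike, and choroid plexus against MHC II-low dura 0.37 ± 0.49 (edgeR adjusted p = 0.608).

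Mmp12, the macrophage elastase, was highest in MHC II-high dura macrophages. The values there were 19.8, 13.6, 12.8 and 11.1 CPM, against 1.25, 2.47, 0.339 and 0.388 CPM in MHC II-low dura, so all MHC II-high libraries lay above all others. Peritoneal libraries had 0.242, 0, 0.379 and 0.257 CPM, choroid plexus libraries 1.26, 2.77, 1.35 and 1.40 CPM, and microglia libraries 5.58, 1.11, 0.926 and 0.727 CPM. Mmp12 rose in MHC II-high against MHC II-low dura by 3.67 ± 0.74 on the log2 scale (edgeR adjusted p = 0.00252, with a change of 4.43 when MHC II-low replicate 2 is left out) and against microglia by 2.78 ± 0.71 (edgeR adjusted p = 0.00282, with a change of 3.90 without microglia replicate 1). It was lower in choroid plexus than in MHC II-high dura by -3.07 ± 0.72 (edgeR adjusted p = 0.00464). Choroid plexus averaged 1.69 ± 0.719 CPM, MHC II-low dura 1.11 ± 0.999 CPM and microglia 2.09 ± 2.33 CPM, and their libraries overlapped with no call between them. The peritoneal mean of 0.220 ± 0.159 CPM was the lowest, and its libraries overlapped those of MHC II-low dura. Peritoneal macrophages fell by 2.92 ± 0.80 against choroid plexus (edgeR adjusted p = 0.00371), by 5.99 ± 0.85 against MHC II-high dura (edgeR adjusted p = 6.98e-06) and by 3.21 ± 0.80 against microglia (edgeR adjusted p = 0.00144, and by 2.07 without microglia replicate 1). The fall against MHC II-low dura, by 2.32 ± 0.78 (edgeR adjusted p = 0.0165), was not called without MHC II-low replicate 2, where it was -1.55 (edgeR adjusted p = 0.101).

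MHC II-high dura also had the highest sum of the 10 monocyte and dendritic cell markers. It came to 61.6–231 CPM in peritoneal, 93.1–144 CPM in choroid plexus, 1137–1328 CPM in the MHC II-high dura, 152–209 CPM in MHC II-low dura and 16.7–26.2 CPM in microglia libraries, with no marker at 0 over a whole population. Of the 10 markers, 4 were called higher and 2 lower in MHC II-high against MHC II-low dura, where 2.39% of all tested genes were higher and 1.48% lower. The part of these genes in the Mmp12 result was not tested.

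Mmp8, the neutrophil collagenase, had few counts anywhere. There were 14 and 9 counts in peritoneal replicates 2 and 3 (0.510 and 0.310 CPM), 1 in choroid plexus replicate 4, 10 and 1 in MHC II-low replicates 2 and 4 (0.321 and 0.0352 CPM), and none in any other library. The 4 MHC II-high dura libraries and the 4 microglia libraries were at 0, and no test was made.

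Mmp14, the membrane-bound protease that activates pro-Mmp2 and pro-Mmp13 at the cell surface, was present in all brain populations and nearly missing from peritoneal macrophages. Peritoneal libraries had 0.311, 1.09, 0.138 and 0.60 CPM, choroid plexus libraries 181, 219, 233 and 214 CPM, MHC II-high dura 159, 114, 110.4 and 126 CPM, MHC II-low dura 51.3, 55.4, 43.3 and 39.6 CPM, and microglia 102, 78.9, 80.3 and 85.1 CPM. No 2 populations overlapped. The order was therefore choroid plexus, MHC II-high dura, microglia, MHC II-low dura and peritoneal macrophages. All 3 steps between neighbours among the brain populations had an adjusted p under 0.05 but fell short of 2-fold. The change was 0.73 ± 0.21 for choroid plexus against MHC II-high dura (edgeR adjusted p = 0.0173), 0.56 ± 0.21 for MHC II-high dura against microglia (edgeR adjusted p = 0.0354) and -0.87 ± 0.22 for MHC II-low dura against microglia (edgeR adjusted p = 0.00252).

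The wider steps in Mmp14 were called. It rose by 1.43 ± 0.22 in MHC II-high against MHC II-low dura (edgeR adjusted p = 0.000229), by 1.29 ± 0.22 in choroid plexus against microglia (edgeR adjusted p = 7.64e-05) and by 2.16 ± 0.22 in choroid plexus against MHC II-low dura (edgeR adjusted p = 8.46e-07). In peritoneal macrophages it fell by 8.63 ± 0.32 against choroid plexus (edgeR adjusted p = 3e-14), by 7.90 ± 0.32 against MHC II-high dura (edgeR adjusted p = 1.01e-13), by 6.48 ± 0.31 against MHC II-low dura (edgeR adjusted p = 1.01e-12) and by 7.34 ± 0.31 against microglia (edgeR adjusted p = 9.93e-14). Without peritoneal replicate 2, the highest of its group, these changes were -9.28, -8.54, -7.12 and -7.99. Choroid plexus replicate 4, whose fibroblast marker sum of 1129 CPM was the highest of all libraries, had 214 CPM of Mmp14 against 181–233 CPM in the other 3 choroid plexus libraries. The part of fibroblasts in the Mmp14 levels was not tested.

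Mmp19, a secreted protease that cuts basement membrane proteins, was highest in peritoneal macrophages, where Mmp14 was lowest. Its level was 12.5, 13.4, 13.1 and 14.3 CPM in peritoneal macrophages, 2.07, 2.31, 3.11 and 4.64 CPM in choroid plexus, 2.87, 2.99, 4.91 and 1.46 CPM in the MHC II-high dura, 3.60, 5.17, 7.84 and 6.13 CPM in MHC II-low dura and 0.752, 0.432, 0.521 and 0.661 CPM in microglia. Peritoneal libraries lay above and microglia libraries below all others, with the border populations overlapping in between. In peritoneal macrophages Mmp19 rose by 2.13 ± 0.34 against choroid plexus (edgeR adjusted p = 1.71e-05), by 2.12 ± 0.33 against MHC II-high dura (edgeR adjusted p = 1.98e-05), by 1.23 ± 0.32 against MHC II-low dura (edgeR adjusted p = 0.00286) and by 4.48 ± 0.39 against microglia (edgeR adjusted p = 2.61e-09). Against microglia it also rose by 2.35 ± 0.37 in choroid plexus (edgeR adjusted p = 3.26e-05), by 2.36 ± 0.37 in MHC II-high dura (edgeR adjusted p = 1.98e-05) and by 3.26 ± 0.37 in MHC II-low dura (edgeR adjusted p = 4.05e-07). MHC II-high against MHC II-low dura gave -0.90 ± 0.32 (edgeR adjusted p = 0.0844) and was called at -1.22 only without MHC II-high replicate 3. Choroid plexus against MHC II-low dura gave -0.90 ± 0.33 (edgeR adjusted p = 0.0443), short of 2-fold, and was called at -1.07 without MHC II-low replicate 1 and at -1.18 without choroid plexus replicate 4. Of the exon bases of Mmp19 (mm10 chr10:128790910-128800824, plus strand), 28.3% lie in exons of Gm47093 or Tmem198b as well, and since the strand setting of the counting is not given in the sources used here, reads of these genes could not be separated and the Mmp19 values are uncertain.

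Timp2, which inhibits most of these proteases and, bound to Mmp14, takes part in activating pro-Mmp2, was present at a high level in all 20 libraries. It had 1782, 2404, 1826 and 2119.7 CPM in peritoneal macrophages, 683, 678, 684 and 579.7 CPM in choroid plexus, 976, 1072, 922 and 913 CPM in the MHC II-high dura, 989.7, 1091, 992 and 898 CPM in MHC II-low dura and 1035, 868, 875 and 847 CPM in microglia. Peritoneal libraries were above all others, choroid plexus libraries below all others, and the dura and microglia libraries overlapped. Timp2 rose in peritoneal macrophages by 1.63 ± 0.11 against choroid plexus (edgeR adjusted p = 7.62e-11), by 1.17 ± 0.11 against microglia (edgeR adjusted p = 6.53e-09), by 1.07 ± 0.11 against MHC II-high dura (edgeR adjusted p = 4.74e-08) and by 1.03 ± 0.11 against MHC II-low dura (edgeR adjusted p = 6.05e-08). Without peritoneal replicate 2 the changes against the dura populations were 0.98 and 0.94, short of 2-fold. The lower level in choroid plexus was short of 2-fold in each comparison, at -0.56 ± 0.11 against MHC II-high dura (edgeR adjusted p = 0.000795), -0.60 ± 0.11 against MHC II-low dura (edgeR adjusted p = 0.000282) and -0.47 ± 0.11 against microglia (edgeR adjusted p = 0.00129). Between the dura populations the change was -0.03 ± 0.11, with an approximate 95% interval of -0.26 to 0.19, which lies within a 2-fold change either way.

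Timp1, the inhibitor that cells make on injury or inflammation, was hardly present. Timp1 had 0.241 CPM in peritoneal replicate 3 and none in the other 3 peritoneal libraries, 0.296, 0, 0.203 and 0.826 CPM in choroid plexus, 0.522, 0.535, 3.0 and 2.48 CPM in the MHC II-high dura, 1.85, 0.514, 1.02 and 0.423 CPM in MHC II-low dura, and 1 count each in 2 microglia libraries. The dura libraries lay above all peritoneal and microglia libraries and overlapped each other and the choroid plexus. The level was 50.9 times that of microglia in MHC II-high dura (95% counting interval 13.9–424, edgeR adjusted p = 0.00258) and 29.9 times in MHC II-low dura (8.06–250, edgeR adjusted p = 0.00773). Peritoneal macrophages fell by 4.59 ± 1.24 against MHC II-high dura (edgeR adjusted p = 0.00392) and by 3.82 ± 1.21 against MHC II-low dura (edgeR adjusted p = 0.011), and without peritoneal replicate 3 they were at least 43.4-fold and at least 25.3-fold lower. Single libraries decided 2 further comparisons. Choroid plexus was at 10.9 times the microglia level (2.65–96.2), not called at edgeR adjusted p = 0.0731 but called without choroid plexus replicate 2 or peritoneal replicate 3. Peritoneal macrophages against choroid plexus gave -2.32 ± 1.21 (edgeR adjusted p = 0.103), and without peritoneal replicate 3 the change was called (edgeR adjusted p = 0.00515). Timp1 (mm10 chrX:20870166-20874735, plus strand) lies inside Syn1, with no exon in common.

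Adamts1, a secreted protease that cuts aggrecan and versican, was highest in microglia by far. The 4 peritoneal libraries had no count. Choroid plexus had 25.6, 29.3, 35.5 and 19.6 CPM, MHC II-high dura 6.78, 5.44, 8.83 and 19.5 CPM and MHC II-low dura 12.3, 29.3, 36.2 and 26.8 CPM, against 1249, 1095, 1086 and 1088 CPM in microglia. Every microglia library was above every other library by a wide margin, and the border populations overlapped except that choroid plexus lay above MHC II-high dura. Adamts1 fell by 5.36 ± 0.43 in choroid plexus (edgeR adjusted p = 1.19e-07), by 6.80 ± 0.46 in MHC II-high dura (edgeR adjusted p = 1.25e-08) and by 5.43 ± 0.43 in MHC II-low dura (edgeR adjusted p = 7.32e-08), each against microglia. Peritoneal macrophages were at least 996-fold lower than choroid plexus, at least 368-fold lower than MHC II-high dura, at least 948-fold lower than MHC II-low dura and at least 40930-fold lower than microglia. Choroid plexus was higher than MHC II-high dura by 1.44 ± 0.38 (edgeR adjusted p = 0.0128), and its change against MHC II-low dura was 0.07 ± 0.36 (edgeR adjusted p = 0.912, approximate 95% interval -0.70 to 0.84).

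Between the dura populations, Adamts1 averaged 10.1 ± 6.42 CPM in MHC II-high and 26.2 ± 10 CPM in MHC II-low cells. It fell by 1.37 ± 0.37 (edgeR adjusted p = 0.0294), with overlap, since MHC II-high replicate 4 at 19.5 CPM was above MHC II-low replicate 1 at 12.3 CPM. Leaving out 1 of the 20 libraries at a time kept the call 14 times. It was lost without MHC II-high replicate 1, 2 or 3 and without MHC II-low replicate 2, 3 or 4, with edgeR adjusted p-values of 0.0577–0.0896. It was also lost when the 8 dura libraries were fitted alone (edgeR adjusted p = 0.0955). Taking replicate number into account, it was lost over all libraries (edgeR adjusted p = 0.0583). With the dura libraries alone, in a fit added after seeing the data, it was then called (-1.44 ± 0.30, edgeR adjusted p = 0.00812).

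The starts of Adamts1 and Timp2, the most abundant of the proteases and inhibitors here in microglia, are printed to set them beside that of Mmp13. Both lie on the minus strand of GRCm38.p6, at chr16:85803114-85803363 and chr11:118355412-118355661, and are given 5′ to 3′ with TGANTCA and TATAAA again in capitals.
Adamts1: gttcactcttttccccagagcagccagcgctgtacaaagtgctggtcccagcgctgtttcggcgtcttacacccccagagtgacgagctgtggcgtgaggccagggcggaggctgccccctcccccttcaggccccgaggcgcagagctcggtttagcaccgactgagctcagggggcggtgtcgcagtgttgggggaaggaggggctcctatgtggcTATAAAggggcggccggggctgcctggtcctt
Timp2: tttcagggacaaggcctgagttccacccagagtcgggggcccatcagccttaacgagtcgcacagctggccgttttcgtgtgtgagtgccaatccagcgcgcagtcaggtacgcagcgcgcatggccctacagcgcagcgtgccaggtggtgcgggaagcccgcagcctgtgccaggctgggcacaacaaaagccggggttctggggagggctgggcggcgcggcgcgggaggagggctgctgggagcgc
Adamts1 holds TATAAA 32 bases before the start and GGGCGG, the GC box, at 3 places, while Timp2 holds GGGCGG at 1 place and no TATAAA. The GC box is found in 32.7% of all windows. GC content was 65.6% in the Adamts1 window and 68% in that of Timp2, against 40.4% in that of Mmp13 and a median of 52.4% over all windows. RefSeq windows were matched for 7 of the 10 genes, and none for Mmp9, Mmp19 and Adamts16.

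Adamts16, a protease of the same family whose substrates are less well known, was found in microglia and hardly elsewhere. The peritoneal and choroid plexus libraries had no counts. MHC II-high dura had 2 counts, both in replicate 1, and MHC II-low dura 21 and 8 counts in replicates 2 and 3 (0.675 and 0.301 CPM), against 28.7, 27.2, 30.3 and 20.4 CPM in microglia. Choroid plexus was at least 526-fold lower and peritoneal macrophages at least 966-fold lower than microglia. The microglia level was 1361 times that of MHC II-high dura (95% counting interval 376–11246), and MHC II-high dura was at least 629-fold lower without its replicate 1. MHC II-low dura fell by 6.70 ± 0.87 against microglia (edgeR adjusted p = 2.99e-05), and by 7.99 without MHC II-low replicate 2. The 29 counts of MHC II-low dura also gave a call against peritoneal macrophages, which were at least 8.85-fold lower (edgeR adjusted p = 0.0123). Without MHC II-low replicate 2, which leaves 8 counts, they were at least 3.64-fold lower (edgeR adjusted p = 0.0416). Choroid plexus against MHC II-low dura was not called (edgeR adjusted p = 0.059) but was without MHC II-low replicate 1 or 4, which hold no counts.

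**Figure D2:**
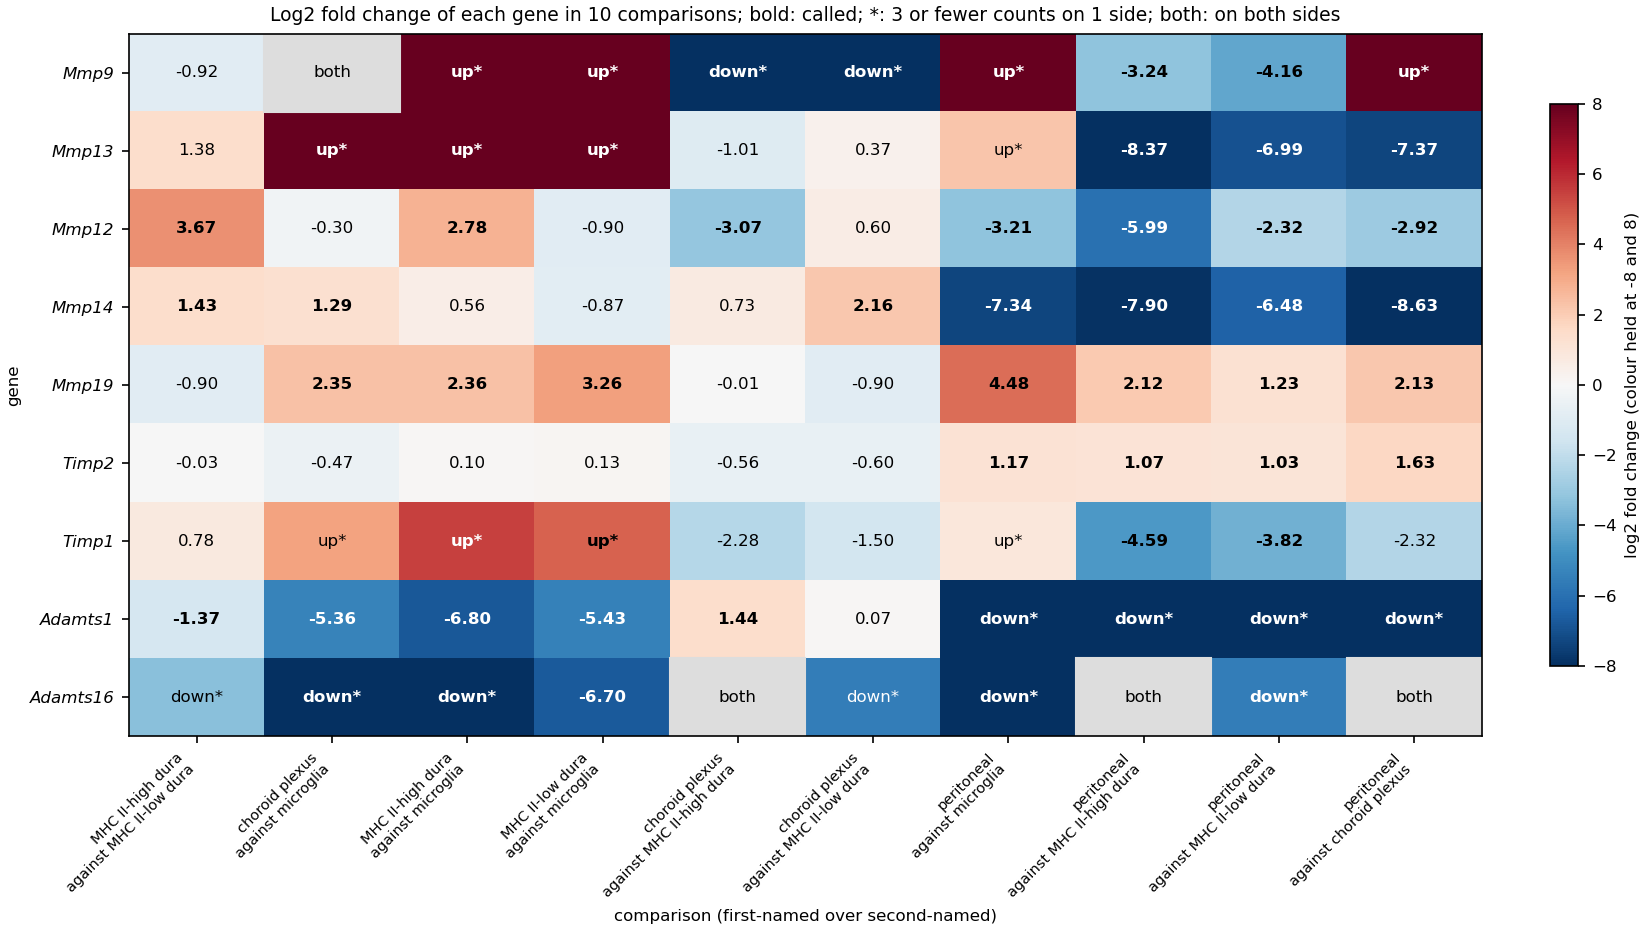
Log2 fold change of the 9 tested genes (rows) in the 10 comparisons (columns), each the first-named over the second-named population, with colour held at -8 and 8 and called values in bold. An asterisk marks cells with 3 or fewer counts on 1 side, where only the direction is given and the colour comes from the fitted value, which is no bound, and grey cells have 3 or fewer counts on both sides. The peritoneal columns hold most of the called falls, and Mmp19 and Timp2 are higher in peritoneal macrophages in all 4 of them.

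Set beside all genes, the share of the 9 tested genes called was high in most comparisons, though the genes were picked with earlier results of these libraries known. MHC II-high against MHC II-low dura had 3 called, where 3.88% of all tested genes were called. Of these, 2 were higher (Mmp12 and Mmp14, with 2.39% of all genes higher) and 1 was lower (Adamts1, with 1.48% lower). Choroid plexus against microglia had 5 called (19.2% of all genes), 3 higher (12.1%) and 2 lower (7.11%). MHC II-high dura against microglia had 7 called (27.9%), 5 higher (15.7%) and 2 lower (12.2%), and MHC II-low dura against microglia had 6 (26.5%), 4 higher (13.8%) and 2 lower (12.7%). Choroid plexus had 3 called against MHC II-high dura (9.88%), 1 higher (5.87%) and 2 lower (4%). Against MHC II-low dura it had 2 (12.8%), 1 higher (8.63%) and 1 lower (4.18%), and 4 without MHC II-low replicate 1. In peritoneal macrophages falls outnumbered rises in every comparison. Against choroid plexus 7 were called (36.7%), 3 higher (12.6%) and 4 lower (24.1%), and against MHC II-high dura 8 (29.2%), 2 higher (9.18%) and 6 lower (20.1%). Against MHC II-low dura 9 were called (31.9%), 2 higher (11.9%) and 7 lower (20%), and against microglia 7 (44.6%), 3 higher (18.9%) and 4 lower (25.7%). The median log2 change of the tested genes was -2.32, -4.59, -4.16 and 0.90 in these 4 comparisons, where that of all genes was -0.13, -0.10, -0.11 and -0.11, and the last value is that of Timp1, with 7 and 2 counts. It was -0.03 between the dura populations, against 0.02 for all genes. These comparisons share samples, and several of the genes were at or near 0 in a population, so the calls are not independent of each other.

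**Figure D3:**
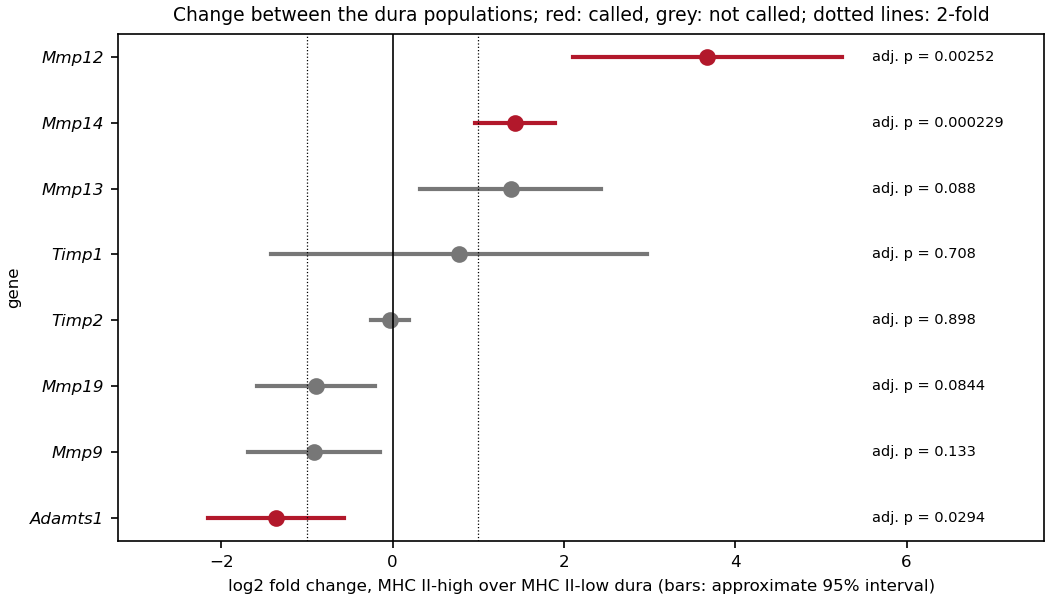
Log2 fold change of MHC II-high over MHC II-low dura for the 8 genes with more than 3 counts on both sides, with approximate 95% intervals as bars, called genes in red and dotted lines at a 2-fold change either way. Mmp12 and Mmp14 lie to the right and Adamts1 to the left among the called genes, and Timp2 has the narrowest interval, around 0.

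To compare genes with each other, CPM were divided by exon length in kb. On this per-length scale the 6 Mmp genes summed to 5.93–11.9 in peritoneal, 44.2–55.3 in choroid plexus, 76.6–150.3 in MHC II-high dura, 68.7–142 in MHC II-low dura and 13.6–18.1 in microglia libraries. Timp1 and Timp2 together came to 457–617, 150–176, 237–276, 231–281 and 217–266 on the same scale in that order of populations, and Timp2 was at least 98.6% of the pair in every library. The ratio of the Timp sum to the Mmp sum was thus 51.9–77.2 in peritoneal macrophages, 2.71–3.97 in choroid plexus, 1.6–3.25 in MHC II-high dura, 1.81–3.73 in MHC II-low dura and 14.7–16.4 in microglia. The border populations overlapped in this ratio, and the peritoneal and microglia libraries each stood above them. The ratio covers the listed genes only, and Mmp2 and Timp3, described below, are in neither sum. The uncertain Mmp19 values are in the Mmp sum and weigh most in peritoneal macrophages. It describes message and not the amount or activity of protein.

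The make-up of the sum of the listed Mmp genes differed by population. Peritoneal macrophages had Mmp9 and Mmp19, at 51.7 ± 9.67% and 45.4 ± 11.4% of the sum per length. These shares are uncertain, because Mmp19 shares exon bases with other genes. Choroid plexus had Mmp14 at 68.8 ± 3.30% and Mmp13 at 29.1 ± 3.04%. MHC II-high dura was mixed, with Mmp9 at 44.5 ± 6.05%, Mmp13 at 28.6 ± 8.13% and Mmp14 at 23.8 ± 9.51%, while in MHC II-low dura Mmp9 alone made up 78.3 ± 5.51%. Its share was 37.8–52.4% in the MHC II-high and 72.2–83.9% in the MHC II-low libraries, without overlap. In microglia Mmp14 made up 97.0 ± 1.65%. Mmp2, which was present in microglia as described below, is not in the sum, so these shares hold among the listed genes only. On the same scale Adamts1 stood at 213 ± 15 and Timp2 at 233 ± 22.2 in microglia.

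**Figure D4:**
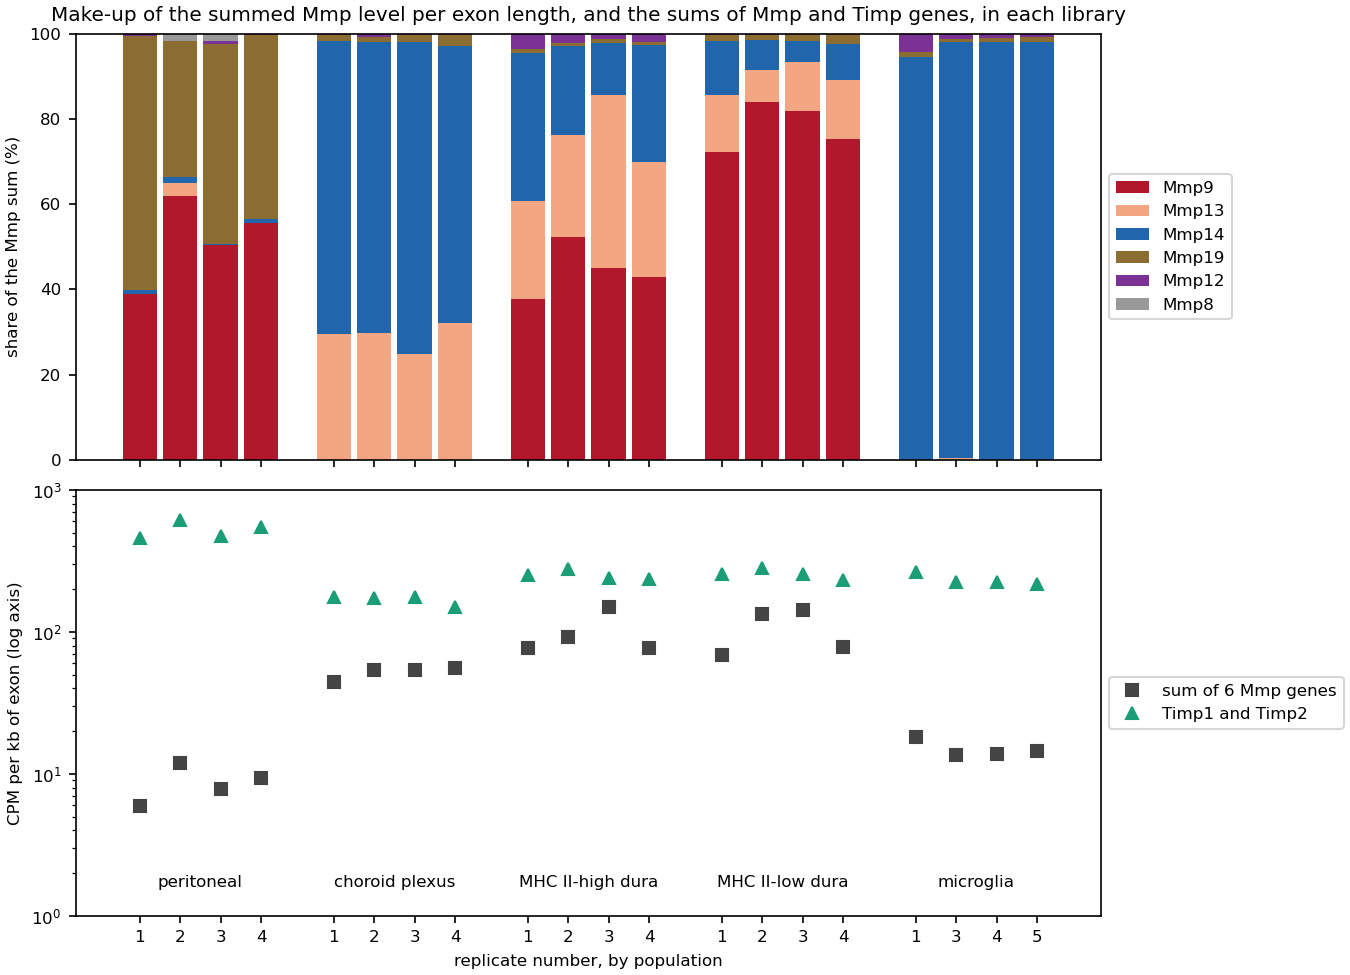
Top, share of each gene in the summed level of the 6 Mmp genes per exon length, in percent, for each library. Bottom, the sum of the 6 Mmp genes (squares) and of Timp1 and Timp2 (triangles) in CPM per kb of exon on a log axis, which lie closest together in the choroid plexus and dura libraries and farthest apart in the peritoneal ones.

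Other genes of the system were read from lists. Of 17 further Mmp genes, 10 were tested, and Mmp2, the gelatinase that Mmp14 activates, was the one called at 10 CPM or more. It had 1.41 ± 0.803 CPM in peritoneal macrophages, 35.8 ± 11.9 CPM in choroid plexus, 14.3 ± 2.82 CPM in the MHC II-high dura, 11.1 ± 2.49 CPM in MHC II-low dura and 42.9 ± 2.31 CPM in microglia. Mmp2 rose in choroid plexus by 1.33 ± 0.28 against MHC II-high dura (edgeR adjusted p = 0.0022) and by 1.69 ± 0.28 against MHC II-low dura (edgeR adjusted p = 0.000186), and fell against microglia by 1.58 ± 0.28 in MHC II-high dura (edgeR adjusted p = 9.35e-05) and by 1.94 ± 0.29 in MHC II-low dura (edgeR adjusted p = 1.14e-05). Mmp2 thus parted from Mmp9, with which it shares the gelatinase role. Over the 10 genes, 1 rose and 6 fell in peritoneal macrophages against microglia, where 18.9% of all tested genes rose and 25.7% fell. Between the dura populations 1 of them rose, as did 2.39% of all genes, and none fell. That gene was Mmp25, a membrane-anchored protease first found in leukocytes, at 7.21 ± 2.82 CPM in MHC II-high and 1.44 ± 0.681 CPM in MHC II-low dura, and it is named outside the rule, after its values were seen.

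Of 9 further inhibitors, 5 were tested, and all 5 fell in peritoneal macrophages against choroid plexus and against microglia, where 24.1% and 25.7% of all tested genes fell. Timp3, the inhibitor that binds to the matrix, had 1 count in all peritoneal libraries, 146 ± 44.7 CPM in choroid plexus, 19.1 ± 2.46 CPM in the MHC II-high dura, 7.84 ± 3.11 CPM in MHC II-low dura and 34.3 ± 47.7 CPM in microglia, where replicate 3 alone reached 105 CPM. It rose in choroid plexus by 2.93 ± 0.67 against MHC II-high dura (edgeR adjusted p = 0.00476), by 4.22 ± 0.71 against MHC II-low dura (edgeR adjusted p = 0.000336) and by 2.09 ± 0.65 against microglia (edgeR adjusted p = 0.0155). The last change was 3.70 without microglia replicate 3, and without that library the fall of Timp3 in MHC II-low dura against microglia was no longer called (-0.52, edgeR adjusted p = 0.219). Without it, too, 3 inhibitors rose in choroid plexus against microglia, where 1 did with all libraries, and 3 fell in MHC II-low dura against microglia, where 5 did. Timp3 was high where the choroid plexus epithelium markers were, and the part of those cells was not tested. Of the exon bases of Timp3, 21.3% lie in exons of Syn3.

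Of 22 further ADAMTS genes and their relatives without protease domain, 17 were tested. In peritoneal macrophages 1 rose and 10 fell against choroid plexus, 1 rose and 10 fell against MHC II-high dura, none rose and 7 fell against MHC II-low dura, and 3 rose and 9 fell against microglia. Of all tested genes, 12.6% rose and 24.1% fell against choroid plexus, 9.18% and 20.1% against MHC II-high dura, 11.9% and 20% against MHC II-low dura, and 18.9% and 25.7% against microglia. Between the dura populations only Adamtsl5 was called among them, with 10.4 ± 1.04 CPM in MHC II-high and 25.3 ± 2.54 CPM in MHC II-low cells (log2 fold change -1.28 ± 0.28, edgeR adjusted p = 0.00531). Without MHC II-low replicate 2 a further gene of the list was called higher.

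All 10 ADAM proteases on the list were tested. Against microglia 5 rose and none fell both in choroid plexus and in MHC II-high dura, where 12.1% and 15.7% of all tested genes rose. In peritoneal macrophages 2 rose and 4 fell against microglia, with 18.9% and 25.7% of all genes, and there 1 rose without peritoneal replicate 4 and 2 fell without peritoneal replicate 1. Adam19 had 87.2 ± 12.1 CPM in choroid plexus, 57.2 ± 7.85 CPM in the MHC II-high dura and 44.2 ± 7.13 CPM in MHC II-low dura, against 0.204 ± 0.210 CPM in microglia. Adam33 fell in MHC II-high against MHC II-low dura, with 7.01 ± 2.28 CPM against 29.0 ± 5.11 CPM (log2 fold change -2.05 ± 0.43, edgeR adjusted p = 0.00344). Adam8, an ADAM protease of myeloid cells, was highest in peritoneal macrophages at 200.05 ± 33.3 CPM, against 0.525 ± 0.0886 CPM in choroid plexus (8.56 ± 0.67, edgeR adjusted p = 6.78e-09) and 0.973 ± 0.479 CPM in microglia (7.67 ± 0.62, edgeR adjusted p = 6.47e-09).

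Of 15 activators and cell-surface partners 13 were tested. Cd44, which holds Mmp9 and Mmp14 at the cell surface, had 316 ± 74.8 CPM in peritoneal macrophages, 20.6 ± 1.72 CPM in choroid plexus, 82.2 ± 9.81 CPM in the MHC II-high dura, 26.7 ± 6.47 CPM in MHC II-low dura and 2.20 ± 0.643 CPM in microglia, and was the gene of this list called between the dura populations (1.62 ± 0.18, edgeR adjusted p = 8.2e-06). Plaur, the urokinase receptor, which gathers the plasminogen activator that starts the activation of several pro-Mmps, was at 243 ± 21.9 CPM in peritoneal macrophages, against 5.15 ± 1.34 CPM in choroid plexus (5.56 ± 0.29, edgeR adjusted p = 3.64e-12) and 34.2 ± 13 CPM in microglia (2.83 ± 0.25, edgeR adjusted p = 5.05e-09).

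Matrix proteins, the substrates, were called lower in peritoneal macrophages for 13 of the 18 tested against choroid plexus and for 14 of 18 against each other population. Of all tested genes, 24.1% were lower against choroid plexus, 20.1% against MHC II-high dura, 20% against MHC II-low dura and 25.7% against microglia. Fn1, which encodes fibronectin, was among the few that rose there, with 19378 ± 8730 CPM in peritoneal macrophages, against 2.69 ± 0.859 CPM in choroid plexus (12.81 ± 1.02, edgeR adjusted p = 1.27e-08) and 17.0 ± 9.60 CPM in microglia (10.16 ± 0.92, edgeR adjusted p = 3.85e-08). In choroid plexus 10 of the 18 rose and 1 fell against microglia (2 fell without microglia replicate 1), with 12.1% and 7.11% of all genes. Against MHC II-high dura 5 rose in choroid plexus, with 5.87% of all genes, and without choroid plexus replicate 4, the library with the highest fibroblast marker sum, none did. The part of fibroblasts in these levels was not tested.

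AP-1 genes, whose products bind TGANTCA, were read because Mmp13 holds those letters near its start. Mmp12 holds them before a start inside the gene, though not before the start at its 5′ end. In peritoneal macrophages 7 of 10 tested fell against choroid plexus, 8 against MHC II-high dura, 7 against MHC II-low dura and 7 against microglia, where 1 rose (none without peritoneal replicate 3). The shares of all tested genes that fell were 24.1%, 20.1%, 20% and 25.7% in that order. Fos had 12.9 ± 3.97 CPM in peritoneal macrophages, 8420 ± 3493 CPM in choroid plexus, 9113 ± 324 CPM in the MHC II-high dura, 8611 ± 864 CPM in MHC II-low dura and 12129 ± 1383 CPM in microglia. The part of these genes in the Mmp13 and Mmp12 levels was not tested. Between the dura populations Batf3 was called higher, at 16.9 ± 1.64 CPM in MHC II-high and 4.30 ± 0.918 CPM in MHC II-low cells (1.97 ± 0.26, edgeR adjusted p = 4.45e-05). Without MHC II-high replicate 3 a further AP-1 gene was called lower there.

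The genes most like each member in pattern were found by Pearson's r of log2(CPM + 0.5) over the 20 libraries of 5 populations, for the 8 members at 5 CPM or more somewhere. These are descriptions over points that share populations. Mmp9 was most like Cd209b, a lectin receptor (r = 0.989), Snx9 (0.958) and Eea1 (0.955). Cd209b averaged 19.0 CPM in peritoneal macrophages, 75.0 CPM in the MHC II-high dura and 107 CPM in MHC II-low dura, and was below 0.05 CPM in choroid plexus and microglia. Pearson's r takes no account of the size of a change, and Snx9 and Eea1 varied far less than Mmp9. They averaged 138 and 55.4 CPM in MHC II-low dura and still 63.2 and 17.9 CPM in microglia. Mmp12 was most like the chemokine Ccl22 (r = 0.890), Ehf (0.887) and Aplnr (0.868), all highest in MHC II-high dura, with means of 4.70, 4.77 and 17.1 CPM there. Mmp13 was most like Tpd52 (r = 0.981), Dnajb14 (0.977) and Ms4a7 (0.977), the last of them one of the border macrophage markers. Mmp14 was most like Ramp1 (r = 0.991), Runx1 (0.987) and Pfkfb4 (0.986), and Mmp19 most like Gypc (r = 0.95), Cyb5r1 (0.942) and Smyd2 (0.939). For Timp2 they were Htra3 (r = 0.966), Pygl (0.960) and Cluh (0.956). For Adamts1 they were Hps4 (r = 0.988), the microglia marker P2ry12 (0.987) and Capn3 (0.986), and for Adamts16 they were Tmem8c (r = 0.997), Csmd3 (0.991) and Adcy8 (0.990).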

How the data were processed

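The authors' deposited values are raw counts of reads per gene symbol, 24421 genes in each of 20 libraries. FastQC 0.11.4 and Trimmomatic 0.38 had been used on the reads, and TopHat2 2.1.0 and SAMtools 0.1.18 are listed with the build mm10, per the submitters' processing notes. For the counting program, its annotation and its strand setting, the entry is "not given in the sources used here". Reads in no feature (5.67–13.1%) and ambiguous reads (0.836–1.51%) were left out of library sizes, and no libraries were identical.

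From these counts, edgeR 4.0.16 in R 4.3.3 was run on all 20 libraries with TMM scaling, its default filter on low counts (13960 genes kept) and the robust quasi-likelihood test, for 10 pairwise comparisons. A call needed a Benjamini-Hochberg adjusted p under 0.05 over all tested genes and a 2-fold change. SEs were taken from the F statistic, and intervals from 15 residual degrees of freedom. Exon lengths and positions come from GENCODE M21 on mm10, which matched 23376 of the gene symbols. Promoter windows come from RefSeq. The test was also run on simulated counts for MHC II-high against MHC II-low dura over 13610 genes. At an adjusted p under 0.05 alone, it recovered 81% of 2-fold and 99% of 4-fold changes, and 6.25% of the genes found were false. The 2-fold rule was not applied there, and changes were put only in genes above a minimum level. These shares thus do not describe the calls made here or genes of low counts. DESeq2 1.42.0 was an alternative, beside other scaling, filters, call rules, fits of only 2 populations, a replicate block and leaving out each library. A bound "at least" uses 3 counts over the whole group of lower level, and ratios to 1–3 counts have exact intervals, both covering counting error only.

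All 10 genes are named. From other lists, called genes at 10 CPM or more in the higher population were eligible, at most 3 per direction by fold, of which some are described, and for each gene at 5 CPM or more the 3 genes most alike, without clone or model symbols. The genes and lists were chosen with earlier results of these data known. Alveolar macrophages and Kupffer cells were not analysed here.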

Additional observations from a re-analysis of the deposited data

Results flagged for a closer look

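In 9 of the 39 groups of 4 libraries examined, 1 library stood far from the other 3 for one of the 10 genes, where chance flags about 1 in 20 groups of normally distributed values. That rate does not hold for low counts, and where 3 of the 4 libraries are at 0, as for Mmp13 and Timp1 in peritoneal macrophages, any count in the other library is marked. Mmp13 in MHC II-high dura replicate 3 was at 163 CPM, with the other 3 at 47.6–58.4 CPM, and in peritoneal replicate 2 it was at 0.947 CPM with the others at 0. Mmp12 was at 2.77 CPM in choroid plexus replicate 2, with the others at 1.26–1.40 CPM, and at 5.58 CPM in microglia replicate 1, with the others at 0.727–1.11 CPM. Mmp8 reached 0.321 CPM in replicate 2 of the MHC II-low dura, with the others at 0–0.0352 CPM. Timp1 was at 0.241 CPM in peritoneal replicate 3, with the others at 0. Timp2 was at 579.7 CPM in choroid plexus replicate 4, with the others at 678–684 CPM, and at 1035 CPM in microglia replicate 1, with the others at 847–875 CPM. Adamts1 was at 1249 CPM in microglia replicate 1, with the others at 1086–1095 CPM. Microglia replicate 1 was therefore marked for 3 of the genes, each time as the highest of its group. It was the highest for Mmp14 and Mmp19 as well, which were not marked.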

How the results depend on the processing

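The genes had 64 changes with an edgeR adjusted p under 0.05, each refitted in 25–28 other settings, and 59 kept their direction and their side of the threshold in every one in which they were refitted. None of the 64 changed sign. Of the 26 other changes, 5 were called in at least 1 setting. With the adjusted p alone as the call rule, the genes called over all genes numbered 1530 for MHC II-high against MHC II-low dura (541 with the 2-fold rule), 5914, 7465 and 7123 for choroid plexus, MHC II-high and MHC II-low dura against microglia (2687, 3895 and 3698), 3666 and 4073 for choroid plexus against MHC II-high and MHC II-low dura (1379 and 1788), and 8762, 7581, 8036 and 9669 for peritoneal macrophages against choroid plexus, MHC II-high dura, MHC II-low dura and microglia (5119, 4083, 4451 and 6229). Under that rule 5 of the 9 tested genes were called in choroid plexus against MHC II-high dura and 4 against MHC II-low dura. With a filter at 10 CPM, where fewer genes are tested, the calls numbered 2444 for MHC II-low dura against microglia, 788 and 1028 for choroid plexus against MHC II-high and MHC II-low dura, and 3133, 2564, 2942 and 4078 for the peritoneal comparisons in the same order. Leaving out 1 library at a time gave 2–4 of the tested genes for choroid plexus against MHC II-low dura, with 4 without MHC II-low replicate 1, and 2–4 for MHC II-high against MHC II-low dura. Same-numbered dura libraries deviated together with correlations of 0.099, 0.13, 0.109 and 0.155. The first was just under the 0.1 required, so the numbers were not taken as pairing. Yet each MHC II-high library correlated best with the MHC II-low library of its own number, and pairs of differing number reached at most 0.038. The main test between the dura populations thus ignores a pairing that may exist, and the results for Mmp9, Mmp13 and Adamts1 there depend on that choice. With the replicate number as a block, 2 of the tested genes were called between the dura populations, Adamts1 being at edgeR adjusted p = 0.0583, and 519 of all genes. With the dura libraries alone and the block, a fit added after seeing the data, 593 of all genes were called and 4 of the tested ones, namely Mmp12, Mmp13, Mmp14 and Adamts1 (-1.44 ± 0.30, edgeR adjusted p = 0.00812). Mmp9 was at -0.91 ± 0.08 in that fit (edgeR adjusted p = 3.62e-06), short of 2-fold. DESeq2 and its size factors moved the median of all genes by less than 0.1 on the log2 scale. Depth limits Mmp8, Timp1 and the low side of Mmp9, Mmp13 and Adamts16, where 3 counts in 1 library correspond to 0.0964–0.222 CPM.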
